A study of Mus musculus with 8 samples.

Results

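Livers of Fah-/- mice that went through 4 weeks of severe injury after 8 weeks of chronic injury (C 8w + A 4w, 3 samples) were compared by RNA sequencing with livers taken after the 8 weeks of chronic injury alone (C 8w, 3 samples). These 6 of the 8 samples of the series were chosen by their treatment labels. All mice were Fah-/- on the 129S4 background, so every group lacked the enzyme. Outside the injury periods they drank NTBC at 7.5 mg/L. During moderate chronic liver injury (MCLI) NTBC was cut to 2.5% of that dose. During severe acute liver injury (SALI) it was withdrawn. C 8w values are given as those after MCLI alone and C 8w + A 4w values as those after SALI. The other 2 samples, tumors taken after 12 weeks of MCLI, did not enter the comparison. C 8w + A 4w livers were also taken 4 weeks further into the protocol than C 8w livers, and their sample codes belong to another series, so severe injury, the added time and the code series cannot be told apart. The age and sex of the mice are not given in the sources used here, so the groups could also differ in either. The study speaks of the samples as individual animals.

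FAH, fumarylacetoacetate hydrolase, is the last enzyme of tyrosine breakdown. Without it toxic intermediates build up in hepatocytes, and NTBC prevents this by blocking HPD, an enzyme earlier in the pathway. Adult hepatocytes make most plasma proteins, bile acids, urea and glucose and inactivate drugs, while injured or senescent hepatocytes are known to arrest the cell cycle through p53 and p21, to switch on stress genes and to secrete factors that act on neighbouring cells.

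The deposited values are FPKM, a level per gene length and per mapped fragments of a sample. They keep no counts, and sequencing depth is unknown. Of 22504 genes listed, 10375 passed a floor of 1 FPKM in 3 or more of these samples. Of these, 63 were set aside because every sample of one group was under 1% of the other group's mean, 54 of them near 0 in C 8w and 9 near 0 in C 8w + A 4w. The other 10312 genes were compared as log2(FPKM + 1) with limma, and called at a Benjamini-Hochberg adjusted p under 0.05. Of these, 319 were at 1 FPKM or more in every C 8w + A 4w sample and below it in every C 8w sample, and 128 the reverse. Such genes passed the floor only through the group in which they were high and could differ in that direction alone, so their log2 differences are given with no p and as a description. They are included in the counts of genes called, 306 of the 319 and 118 of the 128. Among the genes named below they are Plat, Cldn4, Styk1, Pmaip1, Hmmr, Plaur, Igfbp5, Gpnmb, Eomes, Pdgfra, Epcam, Sox9, Igdcc4, Cidea, Ptpn14, Klf4, Oasl1, Krt20 and S100a6, all high in C 8w + A 4w, and Cyp17a1, Upp2, Nnmt, Hao2, Gckr, Bik, C8b, Cxcl9 and Cux2, all high in C 8w. Genes with 1 sample of the lower group at 1 FPKM or more also passed only through the other group. They are not among the 319 or 128, and no p from all 6 samples is given for them. Those named are Mt3, Igfbp6, Ccne1, Slc51b, Krt19 and Cyp2a5, higher in C 8w + A 4w, and Mcm5 and Ccl5, higher in C 8w. Below, a gene said to be at 3 values has these FPKM in samples 1, 2 and 3. A log2 difference is the mean of log2(FPKM + 1) in C 8w + A 4w minus that in C 8w. Summed FPKM ranged from 353062 to 378915 after MCLI alone and from 381348 to 399342 after SALI. The label says liver, although the extraction text speaks of retinas. Of 20 hepatocyte markers all passed the floor, whereas 14 of 16 retina markers were under it, and the summed FPKM of the retina list did not pass 7.96 in any sample against at least 29680 for the hepatocyte list.

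Severe injury after chronic injury was accompanied by a change in about every other gene tested. Of the 10312 genes, 3393 rose after SALI (32.9%) and 1909 fell (18.5%). With a limit of 1 on the log2 difference as well, 732 were higher (7.1%) and 494 lower (4.79%). The median log2 difference over all genes was 0.127, which median-ratio scaling brought to 0.012, with a split of 2618 higher and 2575 lower. Of the 5302 genes called, 3939 were called in the same direction under each of 4 scalings (median-ratio, the same on unshared genes, total and quantile), among them 1219 of the 1226 that changed by at least 1. Calls lost under one of these scalings are marked where a gene is named.

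Part of the change touched genes that share sequence with another gene. For each gene the share of 50-base windows of its GENCODE M21 transcripts that occur in another annotated gene was computed, and genes with at most 2% are called unshared here. Among the 6355 unshared genes tested, 1903 were higher (29.9%) and 1198 lower (18.9%). A rise of at least 1 was called for 10.9% of the 3957 other genes and for 4.75% of the unshared genes, while falls of at least 1 were called for 5.38% and 4.42%. Among 101 rises of 3 or more, 16 were in unshared genes, against 15 of the 37 falls of that size. The genes described below are therefore unshared unless a share is given, and values of genes with a higher share are uncertain, since reads could be divided between copies.

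**Figure D1:**
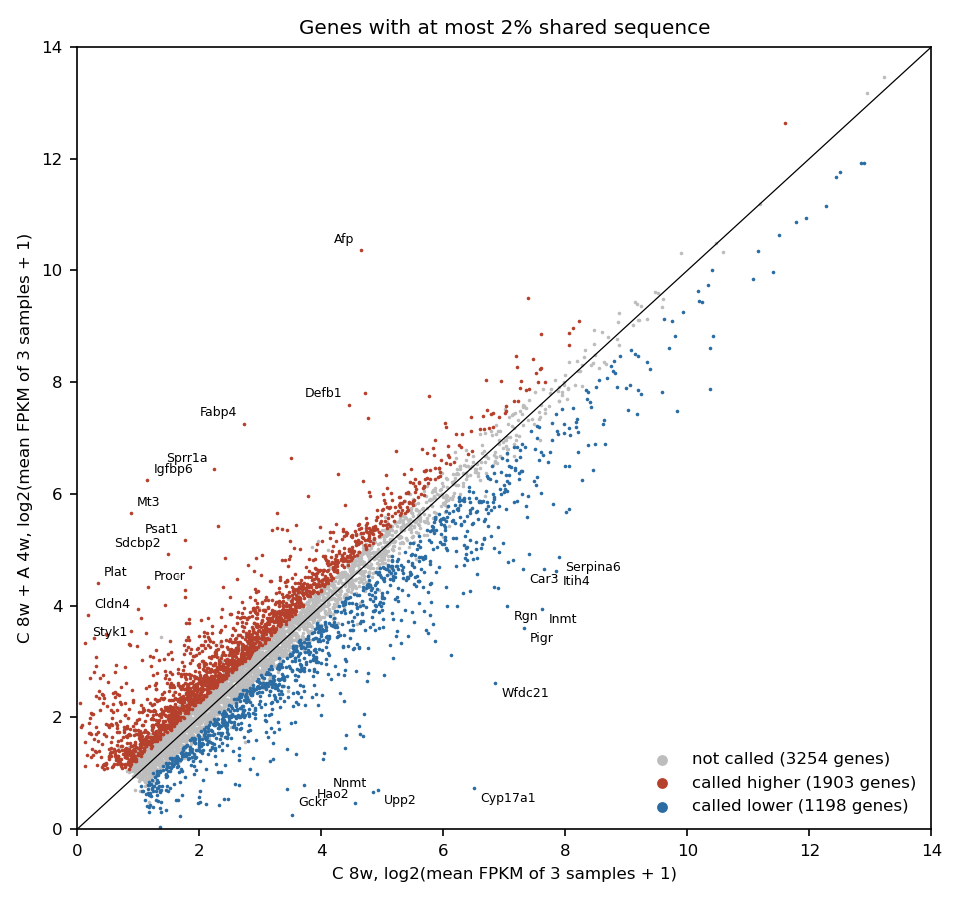
Mean expression of the 6355 unshared genes in C 8w (x axis) and C 8w + A 4w (y axis), both as log2(mean FPKM of 3 samples + 1). Each point is a gene and the line marks equal values; the 1903 genes called higher lie above the line and the 1198 called lower below it, and the 12 largest rises and falls are named.

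Within a group the samples were alike, with Pearson's r across the unshared genes from 0.993 to 0.994 in C 8w, from 0.972 to 0.984 in C 8w + A 4w and from 0.896 to 0.94 across the groups. These are correlations across genes, which are not independent replicates. The C 8w + A 4w samples were less uniform. Within the group, log2 values spanned 1 or more for 260 unshared genes in C 8w + A 4w and for 43 in C 8w. Of the 302 unshared rises of at least 1, C 8w sample 3 was the highest C 8w sample for 218 and C 8w sample 1 the lowest for 201. Of the 281 falls of that size, sample 1 was the highest for 203 and sample 3 the lowest for 168. Over all 6355 unshared genes, sample 3 was highest for 2600 and lowest for 1499, and sample 1 highest for 1058 and lowest for 3292.

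Some of the most abundant liver transcripts were among the genes set aside. Alb, the gene of albumin, was listed at 0, 0 and 0 after MCLI alone and 14440.0, 12946 and 16950.0 after SALI with 0% of its windows shared. An exact 0 for such a gene in every sample of a group can be a failed estimate, so these values are given as listed, with no fold change. The mitochondrial genes mt-Co1 (51.1% shared) and mt-Atp8 were likewise at 0 in every C 8w sample and at 13820.0, 12009 and 11427 and 586, 622 and 862 in C 8w + A 4w. Ppia, cyclophilin A, was at 0.533, 0.483 and 0.456 after MCLI alone and 848, 782 and 761 after SALI (17.3% shared). Rpl19, a ribosomal protein gene, and Tpt1 (57.4% and 18.7% shared) were likewise far lower in C 8w, and 59 of the 63 genes were not unshared. Of 77 genes of cytosolic ribosomal proteins that passed the floor, 28 were set aside and 44 of the other 49 were called higher, with a median log2 difference of 3.48, but the only unshared one among the 49 was not called.

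The largest rise among unshared genes whose groups did not overlap was that of Afp, the gene of alpha-fetoprotein, a plasma protein of fetal liver. Its FPKM was 19.3, 15.4 and 37.6 after MCLI alone and 1533, 1147 and 1278 after SALI, a log2 difference of 5.81 with a standard error of 0.29 (limma, adjusted p = 2.67e-06). Igfbp6, whose product binds insulin-like growth factors, was at 0.981, 0.981 and 1.68 after MCLI alone and 69.6, 83.5 and 72.6 after SALI. Its log2 difference was 5.12 with a standard error of 0.14. Mt3, a metallothionein that binds zinc and copper, was at 0.224, 0.528 and 1.74 after MCLI alone and 37.6, 54.5 and 56.1 after SALI. Its log2 difference was 4.85 with a standard error of 0.29. Mt3 and Igfbp6 passed the floor only through the C 8w + A 4w samples. For each of these genes every C 8w + A 4w sample lay above every C 8w sample, which was a condition of choosing them. Fabp4, a fatty acid carrier known from fat cells and macrophages, rose from a mean FPKM of 5.64 ± 1.79 (SD, n = 3) to 152 ± 53.9 (SD, n = 3), and Sprr1a, a cross-linked protein of stressed epithelia, was at 1.70, 2.34 and 7.08 after MCLI alone and 168, 43.5 and 46.1 after SALI (log2 difference 4.08, adjusted p = 0.000714 in limma). In sample 1 Sprr1a was well above the other 2.

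The other leading rises had several functions. Plat, the tissue plasminogen activator, was at 0.205, 0.141 and 0.444 after MCLI alone and 20.1, 22.9 and 17.5 after SALI, a log2 difference of 4.07 with a standard error of 0.13. Procr, the endothelial protein C receptor, rose by 3.17 and Styk1, a receptor-like kinase, by 3.19 on the log2 scale, with no C 8w sample above 1.39. Cldn4, a tight junction claudin, was at 0.106, 0.124 and 0.169 after MCLI alone and 20.2, 11.4 and 8.20 after SALI (log2 difference 3.57). Sdcbp2, which encodes a syntenin, rose by 3.47. Defb1, a beta-defensin of epithelia, was at 13.6, 15.03 and 34.3 after MCLI alone and 295, 124 and 159 after SALI and Psat1, an enzyme of serine synthesis, at 1.56, 1.96 and 3.67 after MCLI alone and 43.1, 27.8 and 34.4 after SALI. Their log2 differences were 3.16 and 3.44 (adjusted p = 0.000422 and 1.78e-05 in limma).

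The 12 largest falls included several enzymes known from adult hepatocytes. Cyp17a1, a steroid hydroxylase, was at 123, 88.4 and 55.8 after MCLI alone and 0.726, 0.946 and 0.304 after SALI, a log2 difference of -5.71 with a standard error of 0.27. Nnmt and Inmt, both N-methyltransferases, fell by 4.15 and 3.72 on the log2 scale. Upp2, a uridine phosphorylase, was at 40.4, 27.5 and 20.3 after MCLI alone and 0.712, 0.370 and 0.813 after SALI. Hao2, a peroxisomal hydroxyacid oxidase, was at 32.4, 22.5 and 12.9 after MCLI alone and 0.321, 0.157 and 0.679 after SALI, a log2 difference of -4.02 with a standard error of 0.29, and Gckr, the regulator of glucokinase, at 13.1, 9.76 and 8.45 after MCLI alone and 0.152, 0.169 and 0.239 after SALI, a log2 difference of -3.25 with a standard error of 0.15. All 3 C 8w + A 4w samples of these enzymes were under 1 except those of Inmt. In a bulk sample, fewer cells of a type and less RNA per cell cannot be told apart.

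The other 6 leading falls had several functions. Pigr, which carries IgA into bile, was at 174, 167 and 136 after MCLI alone and 9.76, 12.996 and 10.5 after SALI, a log2 difference of -3.73 with a standard error of 0.14 (limma, adjusted p = 5.33e-07). Serpina6, which carries corticosteroids in plasma, was at 268, 204 and 241 after MCLI alone and 14.4, 50.9 and 19.2 after SALI, and Itih4, an inter-alpha-trypsin inhibitor chain, at 262, 249 and 178 after MCLI alone and 10.5, 29.1 and 31.1 after SALI. Their log2 differences were -3.23 and -3.35 (adjusted p = 0.000366 and 0.000223 in limma). Wfdc21 fell by 4.21 and Rgn, regucalcin, by 3.19 on the log2 scale. Car3, the carbonic anhydrase of hepatocytes around the central vein, was the least uniform of the 12, at 189.9, 96.8 and 186 after MCLI alone and 1.92, 62.1 and 8.95 after SALI, a log2 difference of -3.63 with a standard error of 0.94 (limma, adjusted p = 0.0131). Its adjusted p was 0.05 without C 8w sample 1. Sample 2 of C 8w + A 4w stayed closest to C 8w for Car3, Serpina6 and Rgn.

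**Figure D2:**
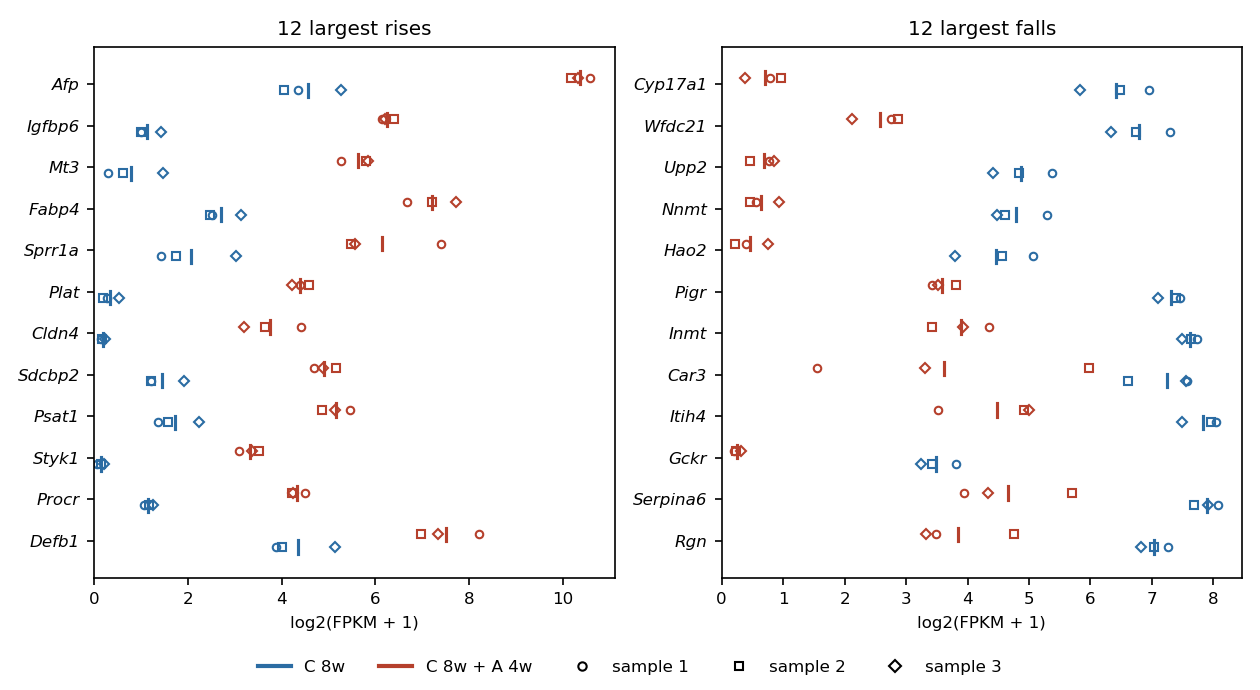
Expression of the 12 largest rises (left) and falls (right) among unshared genes, as log2(FPKM + 1) on the x axis. Open symbols are single samples and vertical ticks the mean of 3 samples, C 8w in blue and C 8w + A 4w in red; the genes were chosen among those whose groups did not overlap, and the widest spread is that of Car3 in C 8w + A 4w, from 1.92 to 62.1 FPKM.

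Promoter windows of 3 of these genes are shown because the letters GTTAAT, one arm of the site of the liver factor HNF1, were found more often before genes that fell. RefSeq windows (GRCm38.p6) from 250 bases before to 50 after a start were found for 8106 genes tested. GTTAAT on either strand was in 5.66% of them. It was in 38 of 211 unshared genes that fell by at least 1 (18%) and in 11 of 232 that rose by at least 1 (4.74%). GTTAAT was picked from several motifs counted. Before the same falls the TATA box (18.957% against 9.203% of all genes) and the AP-1 site (9.479% against 6.366%) were also more frequent. The antioxidant (15.166% against 17.037%) and cyclic AMP (2.37% against 3.491%) response elements were less frequent. The windows of Afp (chr5:90490464-90490763, plus strand), Hao2 (chr3:98893181-98893480, minus strand) and Gckr (chr5:31297313-31297612, plus strand) are written in the direction of the gene, with the matches in capitals.
Afp: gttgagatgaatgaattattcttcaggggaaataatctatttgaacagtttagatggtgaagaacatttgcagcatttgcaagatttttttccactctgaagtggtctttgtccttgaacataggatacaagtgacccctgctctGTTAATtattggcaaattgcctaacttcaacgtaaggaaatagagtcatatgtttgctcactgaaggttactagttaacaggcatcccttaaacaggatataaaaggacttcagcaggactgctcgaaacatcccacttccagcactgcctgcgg
Hao2: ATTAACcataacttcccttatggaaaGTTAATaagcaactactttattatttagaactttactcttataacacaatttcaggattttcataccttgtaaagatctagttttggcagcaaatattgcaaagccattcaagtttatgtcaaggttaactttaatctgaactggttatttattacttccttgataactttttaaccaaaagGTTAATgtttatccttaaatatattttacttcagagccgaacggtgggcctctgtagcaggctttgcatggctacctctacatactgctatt
Gckr: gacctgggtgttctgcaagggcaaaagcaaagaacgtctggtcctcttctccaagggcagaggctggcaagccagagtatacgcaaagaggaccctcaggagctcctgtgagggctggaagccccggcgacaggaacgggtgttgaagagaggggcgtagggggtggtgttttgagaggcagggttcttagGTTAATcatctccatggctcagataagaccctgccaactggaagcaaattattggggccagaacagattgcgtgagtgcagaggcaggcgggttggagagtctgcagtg
Afp holds the same letters as Hao2 and Gckr although it moved the other way. These are matches of letters and no test of binding.

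Gene lists with known roles were then counted. For 47 lists, the share of members called can be read against 32.9% higher and 18.5% lower over all genes and, for unshared members, against 29.9% and 18.9%. Among lists with at least 5 unshared members, the median over those members was lowest for enzymes of amino acid breakdown and of tyrosine breakdown. It was highest for oncofetal and immediate early genes. The oncofetal median is the value of Igdcc4, which passed the floor only through the C 8w + A 4w samples. Counts of called members in other lists can include such genes too.

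**Figure D3:**
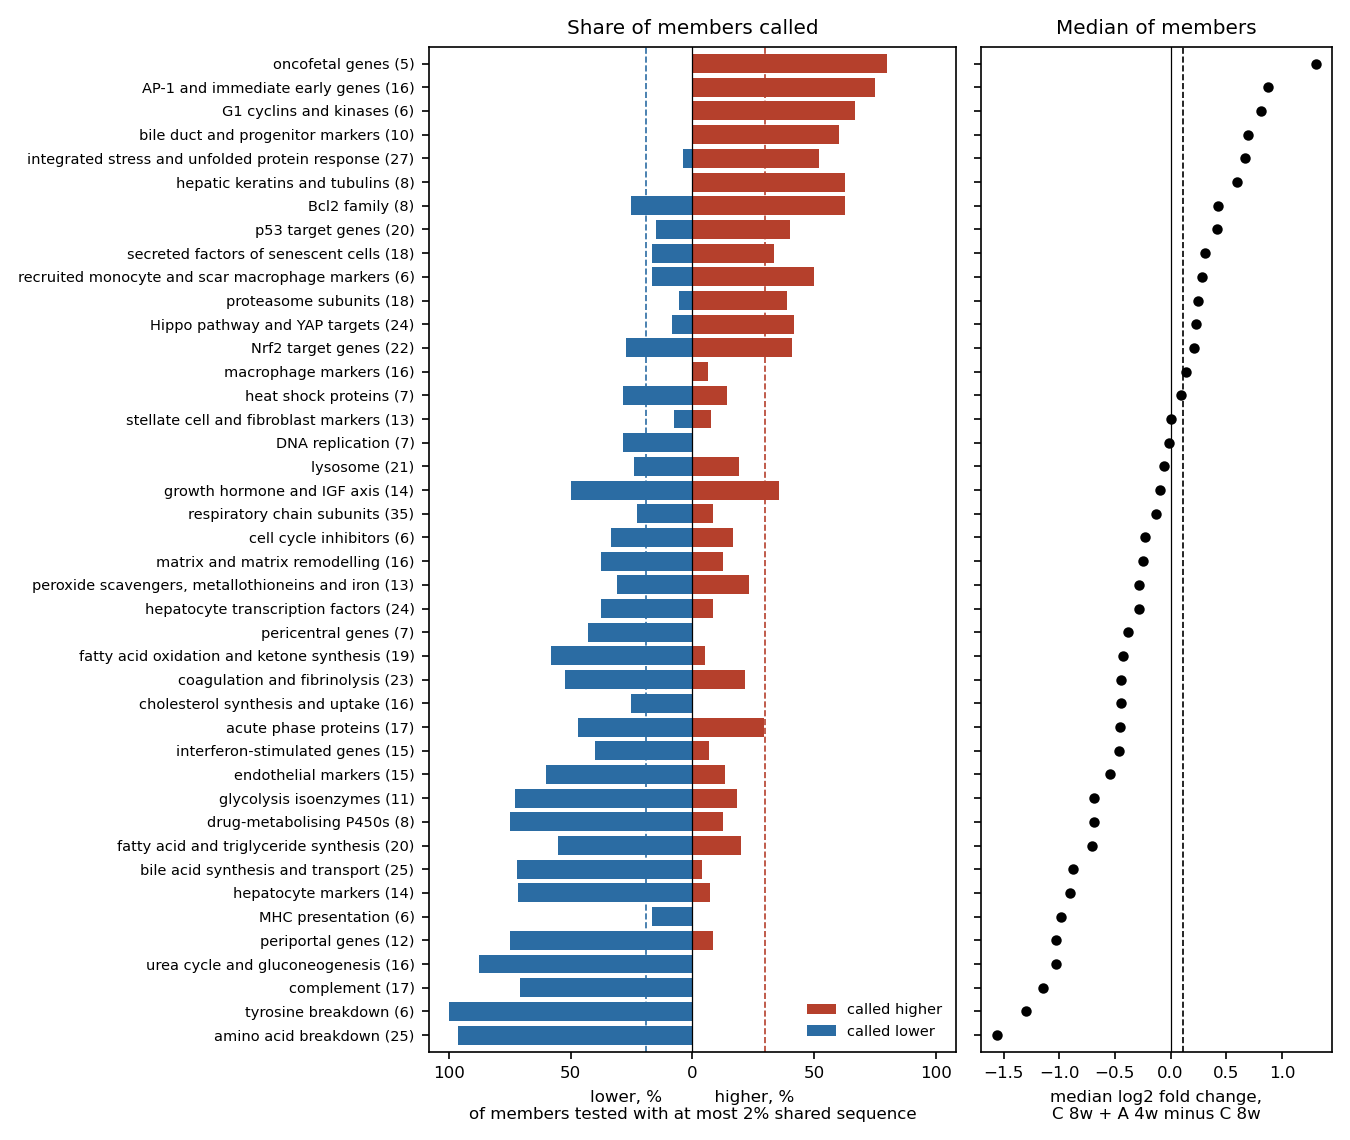
Left, percent of the unshared members of each list called higher (red, to the right) or lower (blue, to the left) in C 8w + A 4w, with dashed lines at 29.9% and 18.9%, the shares over all unshared genes. Right, median log2 difference of the same members, with a dashed line at 0.108, the median over all unshared genes; numbers in parentheses are members, and lists with fewer than 5 are left out.

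Genes of amino acid and tyrosine breakdown were lower in C 8w + A 4w almost without exception. All 8 tyrosine genes tested fell, with a median log2 difference of -1.19. The residual transcript of Fah, which both groups lack as an enzyme, was at 16.8, 16.5 and 15.6 after MCLI alone and 5.02, 6.11 and 6.36 after SALI, a log2 difference of -1.34 with a standard error of 0.11 (limma, adjusted p = 3.73e-05). Hpd, the target of NTBC, was at 660.5, 551 and 604 after MCLI alone and 202, 228 and 229 after SALI. Its log2 difference was -1.46 (adjusted p = 4.39e-05 in limma), and no C 8w + A 4w sample reached the lowest C 8w sample. Tat, tyrosine aminotransferase, fell by 1.26, with sample 1 at 239, inside the C 8w range (adjusted p 0.111 without C 8w sample 1, 0.0733 without C 8w sample 2, 0.0624 without C 8w + A 4w sample 2 and 0.0878 without C 8w + A 4w sample 3).

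Of 37 other genes of amino acid breakdown, 34 were lower and 1 higher, with a median of -1.34 (24 of 25 unshared genes lower, median -1.56). Gnmt, which uses up S-adenosylmethionine, was at 1621, 1201 and 1133 after MCLI alone and 247, 235 and 221 after SALI, a log2 difference of -2.47 with a standard error of 0.15 (limma, adjusted p = 9.94e-06). Mat1a, which makes S-adenosylmethionine in adult liver, fell by 2.38. Haao, of the tryptophan pathway, fell by 2.34 and Uroc1, of histidine breakdown, by 2.23 on the log2 scale. The member called higher was Ahcy, at 7.24, 6.06 and 7.33 after MCLI alone and 52.0, 45.1 and 43.6 after SALI, of whose windows 68.7% are shared. Bhmt, at 333, 189 and 217 after MCLI alone and 116, 209 and 164 after SALI with 26.1% shared, was not called (adjusted p = 0.0922 in limma, 0.029 without C 8w + A 4w sample 2).

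Urea cycle and gluconeogenesis genes followed, with 15 of 19 lower and 1 higher, and a median of -0.73. Under total scaling and without C 8w + A 4w sample 2, 2 were higher. Gls2, the liver glutaminase, was at 132, 117 and 107 after MCLI alone and 14.5, 17.9 and 24.5 after SALI, a log2 difference of -2.61 with a standard error of 0.18 (limma, adjusted p = 1.89e-05). Asl, argininosuccinate lyase, fell by 2.10, and Got1, an aspartate aminotransferase, by 1.63. Fbp1, fructose bisphosphatase of gluconeogenesis, was at 458, 363 and 386 after MCLI alone and 91.9, 123 and 137 after SALI and fell by 1.78. The exception was Ass1, the urea cycle enzyme before Asl, at 15.05, 12.2 and 12.7 after MCLI alone and 283, 267 and 277 after SALI, with 38.6% of its windows shared.

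Of 29 genes of bile acid synthesis and transport tested, 19 were lower and 3 higher, with a median log2 difference of -0.86. Cyp7a1, the rate-limiting enzyme of bile acid synthesis, was at 35.3, 20.8 and 18.1 after MCLI alone and 0.836, 3.47 and 2.27 after SALI, a log2 difference of -3.05 with a standard error of 0.34 (limma, adjusted p = 0.000238). Cyp8b1, which makes cholic acid, was at 376, 196 and 229 after MCLI alone and 26.8, 61.8 and 67.9 after SALI, and Baat, which couples bile acids to amino acids, fell from a mean FPKM of 92.7 ± 8.37 (SD, n = 3) to 27.8 ± 6.84 (SD, n = 3). Slco1b2, a hepatocyte uptake carrier, was at 142, 126 and 129 after MCLI alone and 11.8, 52.5 and 14.8 after SALI, with sample 2 above the others and the groups apart (log2 difference -2.59, adjusted p = 0.00246 in limma).

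The 3 members that rose export bile constituents from the hepatocyte. Abcc2, a canalicular pump of conjugates, was at 113, 157 and 116 after MCLI alone and 181, 195 and 189 after SALI, a log2 difference of 0.56 with a standard error of 0.14 (limma, adjusted p = 0.0123). Its adjusted p was 0.0543 without C 8w sample 1. Abcb4, which moves phospholipid into bile, rose by 0.47 with 2.87% of its windows shared. Slc51b, a subunit of the basolateral bile acid exporter, was at 0.728, 0.673 and 1.55 after MCLI alone and 5.37, 2.47 and 3.78 after SALI with 6.52% shared, and rose by 1.28. Scp2, a lipid carrier, was the most abundant member not called (29.7% shared, adjusted p = 0.0929 in limma).

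Drug-metabolising P450 genes are poorly resolved, because 39 of the 47 tested had more than 2% shared sequence. Of the 47, 26 were lower and 9 higher, with a median of -0.49, and of the 8 unshared genes 6 were lower and 1 higher. Cyp2j5, an epoxygenase, was at 67.7, 51.9 and 44.5 after MCLI alone and 9.24, 20.6 and 17.6 after SALI, a log2 difference of -1.78 with a standard error of 0.28 (limma, adjusted p = 0.00124). Cyp2c23 fell by 1.29 and Cyp2c70, which makes muricholic acids in mice, by 1.04 on the log2 scale. Cyp1a1, an aryl hydrocarbon receptor target, was at 4.16, 7.02 and 9.13 after MCLI alone and 32.8, 92.4 and 27.5 after SALI (3.43% shared) and rose by 2.58. Its pericentral relative Cyp1a2 was at 558, 522 and 590.4 after MCLI alone and 38.0, 156 and 114 after SALI (4.79% shared) and fell by 2.65. Cyp2a5, with 37.0% shared, was at 7546, 0 and 0 after MCLI alone and 9009.5, 7325 and 10196 after SALI, and its call was lost under some scalings (adjusted p 0.137 without C 8w sample 2, 0.129 without C 8w sample 3, 0.0686 without C 8w + A 4w sample 1, 0.0548 without C 8w + A 4w sample 2 and 0.0864 without C 8w + A 4w sample 3). Without C 8w sample 1 or 2, and under median-ratio scaling, the list had 5 higher members.

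Markers of the zones of the lobule were counted separately. Of 16 periportal genes tested, 11 were lower and 2 higher, with a median of -1.03, and of 16 pericentral genes 8 were lower and none higher, with a median of -0.55 (-0.35 without C 8w + A 4w sample 1). Oat, a pericentral enzyme of ornithine breakdown, was at 77.0, 60.7 and 59.8 after MCLI alone and 16.4, 15.6 and 12.9 after SALI, a log2 difference of -2.06 with a standard error of 0.14 (limma, adjusted p = 1.46e-05). Hal, the periportal histidine ammonia-lyase, fell by 1.56. Cdh1, E-cadherin, listed as periportal, was at 25.8, 31.6 and 28.9 after MCLI alone and 40.1, 47.9 and 47.3 after SALI and rose by 0.63 (adjusted p = 0.00319 in limma). Aldh1a1 (3.06% shared) and Hsd17b13, the most abundant members not called, had log2 differences of 0.18 and 0.18 (adjusted p of Hsd17b13 0.0372 without C 8w + A 4w sample 2). Without C 8w + A 4w sample 2, 10 pericentral genes were lower.

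Of 28 genes of fatty acid and triglyceride synthesis, 15 were lower and 7 higher, with a median of -0.69. Srebf1, the transcription factor that drives fatty acid synthesis, was at 42.9, 60.7 and 46.8 after MCLI alone and 10.02, 14.7 and 17.2 after SALI, a log2 difference of -1.79 with a standard error of 0.20 (limma, adjusted p = 0.000244). Thrsp, its lipogenic target, was at 33.3, 20.99 and 20.8 after MCLI alone and 1.34, 6.95 and 1.201 after SALI, and Fads1 and Fads2, desaturases of polyunsaturated fatty acids, had log2 differences of -2.19 and -1.77. Cidea and Cidec, lipid droplet proteins, were at 0.362, 0.139 and 0.142 after MCLI alone and 4.18, 10.1 and 3.72 after SALI and at 9.24, 12.9 and 16.4 after MCLI alone and 72.1, 60.6 and 52.0 after SALI. They rose by 2.42 and 2.20 on the log2 scale (adjusted p of Cidec = 8.29e-05 in limma). Pnpla2, the adipose triglyceride lipase, rose by 0.58. Cd36, a fatty acid carrier, was not called, with a log2 difference of 0.04 (adjusted p = 0.874 in limma).

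Fatty acid oxidation and ketone genes were lower in 19 and higher in 3 of 33 members, with a median of -0.43. Hadh and Acads, both of the mitochondrial beta-oxidation cycle, fell by 0.86 and 0.85. Fgf21, a fasting and stress hormone of liver, was at 16.8, 15.6 and 18.2 after MCLI alone and 24.3, 29.0 and 31.6 after SALI and rose by 0.71. Ehhadh, of peroxisomal oxidation, was the most abundant member not called, at 456, 523 and 791 after MCLI alone and 495, 534 and 639 after SALI.

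Of 25 genes of cholesterol synthesis and uptake, 7 were lower and none higher, with a median of -0.38. The median was -0.14 without C 8w + A 4w sample 3, -0.22 without C 8w sample 1, -0.57 without C 8w sample 2 and -0.87 without C 8w + A 4w sample 2. The number higher was 1 under total scaling and without C 8w sample 1 or 3 or C 8w + A 4w sample 3. Sc5d, a late enzyme of cholesterol synthesis, was at 75.2, 41.4 and 41.1 after MCLI alone and 15.3, 28.2 and 10.6 after SALI, a log2 difference of -1.54 with a standard error of 0.35 (limma, adjusted p = 0.0074). C 8w sample 1 and C 8w + A 4w sample 2 were the highest of their groups for Sc5d, and the list had 15 lower members without C 8w + A 4w sample 2 and 4 without C 8w sample 1 or C 8w + A 4w sample 1 or 3. Ebp fell from a mean FPKM of 89.2 ± 13.1 (SD, n = 3) to 43.7 ± 7.61 (SD, n = 3).

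Of 28 coagulation and fibrinolysis genes, 17 were lower and 5 higher, with a median of -0.79 (-0.45 over 23 unshared genes). F7, factor VII, was at 17.8, 15.02 and 12.9 after MCLI alone and 1.29, 1.54 and 1.31 after SALI, a log2 difference of -2.76 with a standard error of 0.13 (limma, adjusted p = 1.51e-06). Serpind1, heparin cofactor II, fell by 2.59 and Proz, protein Z, by 2.32. F9, factor IX, was at 38.9, 39.7 and 32.2 after MCLI alone and 6.73, 12.03 and 13.2 after SALI and fell by 1.74. Fgb, a fibrinogen chain, was the most abundant member not called, at 627, 574 and 608 after MCLI alone and 653, 626 and 701 after SALI (log2 difference 0.13, adjusted p = 0.357 in limma).

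Of the 5 members that rose, 3 are described here, and Plat and Plaur passed the floor only through the C 8w + A 4w samples. Besides Plat, Plaur, the urokinase receptor, was at 0.156, 0.318 and 0.221 after MCLI alone and 10.7, 4.89 and 6.79 after SALI, a log2 difference of 2.73 with a standard error of 0.22. Thbd, thrombomodulin, rose by 1.503 on the log2 scale. No C 8w sample of these 3 genes was above 1.57, and no C 8w + A 4w sample was under 4.12.

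Of 26 complement genes 19 were lower and none higher, with a median log2 difference of -1.22 (12 of 17 unshared genes lower). C3, the central component, was at 1521, 1405 and 1199 after MCLI alone and 307, 512 and 539 after SALI, a log2 difference of -1.64 with a standard error of 0.22 (limma, adjusted p = 0.000624). C8a and C8b, subunits of the membrane attack complex, fell by 1.96 and 1.88, and C4bp, an inhibitor of the classical pathway, by 2.24. C1qa, made by macrophages rather than hepatocytes, was not called, at 38.1, 44.7 and 39.1 after MCLI alone and 48.3, 87.8 and 36.1 after SALI.

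Acute phase genes were divided. Of 30 tested, 15 were lower and 7 higher, with a median of -0.43 (-0.21 without C 8w + A 4w sample 1). Crp was at 85.5, 65.0 and 55.8 after MCLI alone and 4.63, 10.1 and 8.19 after SALI, a log2 difference of -3.05 with a standard error of 0.26 (limma, adjusted p = 5.17e-05), and Hpx, the heme carrier hemopexin, at 3082, 2621 and 2453 after MCLI alone and 971, 829 and 1199.5 after SALI, a log2 difference of -1.45 with a standard error of 0.17 (limma, adjusted p = 0.000282). Itih3 fell by 1.53. Lcn2, lipocalin 2, was at 9.30, 11.4 and 12.3 after MCLI alone and 40.3, 50.2 and 37.1 after SALI and rose by 1.86 (adjusted p = 3.52e-05 in limma). Il1r1, the interleukin 1 receptor, rose by 0.97 and Socs3, an inhibitor of cytokine signals, by 0.87 (adjusted p of Socs3 0.0612 without C 8w sample 1). Hamp, the iron hormone hepcidin, was not called, at 1640.3, 1784 and 2048 after MCLI alone and 2983, 2075 and 1641 after SALI (16.6% shared).

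**Figure D4:**
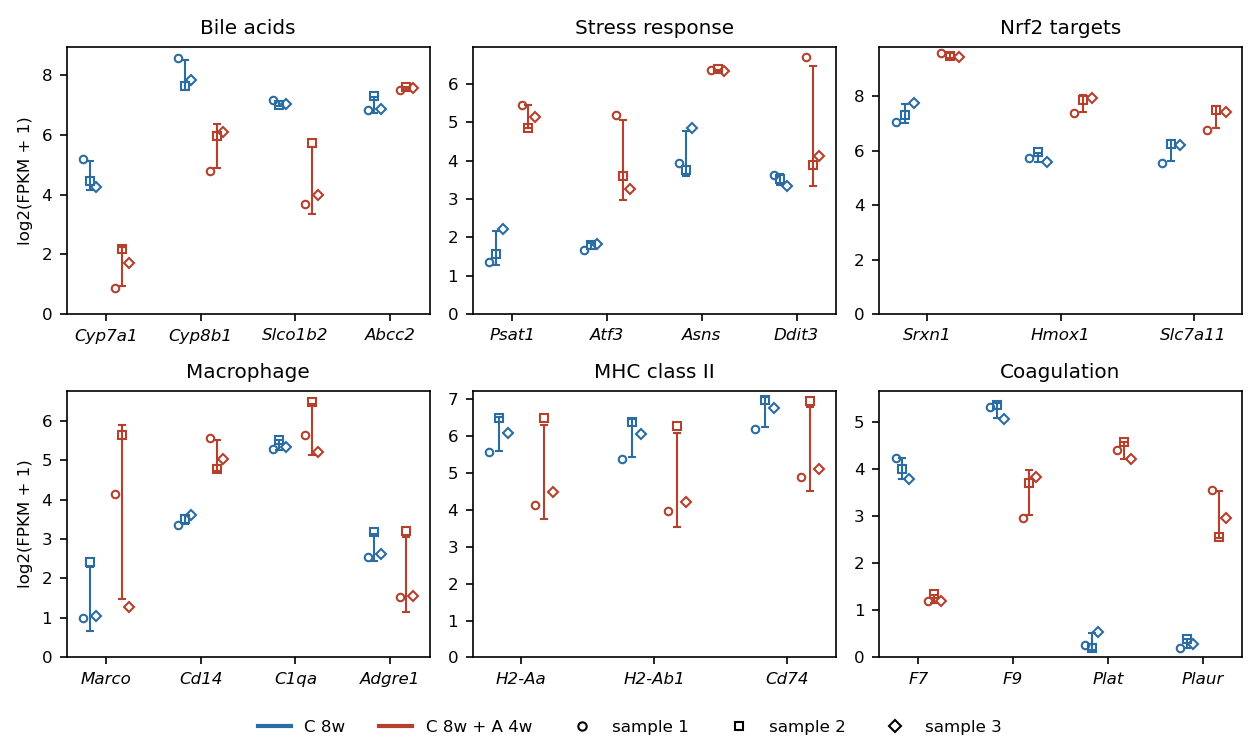
Expression of genes from 6 functions, as log2(FPKM + 1) on the y axis, C 8w in blue and C 8w + A 4w in red. Open symbols are samples and bars the mean ± SD of 3; the groups stay apart for Cyp7a1, F7, Plat, Plaur and Ddit3, of which Ddit3 is far higher in C 8w + A 4w sample 1 (102 FPKM) than in samples 2 and 3, and Marco and the MHC class II genes have their highest C 8w + A 4w value in sample 2.

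Among hepatocyte transcription factors 14 of 31 were lower and 2 higher, with a median of -0.38. Nr1h3, the oxysterol receptor LXR alpha, was at 30.03, 28.2 and 28.4 after MCLI alone and 11.5, 21.3 and 11.8 after SALI and fell by 0.97. Nr1h4, the bile acid receptor FXR, was at 40.2, 39.4 and 38.0 after MCLI alone and 20.9, 27.2 and 23.9 after SALI, a log2 difference of -0.69 with a standard error of 0.12 (limma, adjusted p = 0.00174). Klf15, a factor of amino acid use, fell by 0.79. Hnf4a, the main factor of hepatocyte identity, was at 93.2, 91.3 and 90.4 after MCLI alone and 83.1, 85.3 and 81.2 after SALI and was not called (log2 difference -0.14, adjusted p = 0.242 in limma). Atf5, a stress-related factor, rose by 0.67 and Rora, a nuclear receptor, by 0.49 (adjusted p of Rora 0.0802 without C 8w sample 1 and 0.0674 without C 8w sample 3), so that 1 member was higher without these samples.

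Most hepatocyte markers were lower. Of 19 tested 13 were lower and 2 higher, with a median of -0.99 (-0.59 under quantile normalization), and Alb was set aside. Of 14 unshared members 10 were lower and 1 higher. Apoa2 was at 5711, 4213 and 4956 after MCLI alone and 2344, 2116 and 2386 after SALI and fell by 1.11, and F2, prothrombin, fell by 1.49. Apoa1, the main protein of high density lipoprotein, was at 3578, 2496 and 3267 after MCLI alone and 6466, 5817 and 6812 after SALI, a log2 difference of 1.04 with a standard error of 0.17 (limma, adjusted p = 0.0014), so that the apolipoproteins of the same particle went in opposite directions under each of the 4 scalings.

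Of the growth hormone and IGF axis, 11 of 20 genes were lower and 5 higher, with a median of -0.35 (-0.09 over 14 unshared genes). Ghr, the growth hormone receptor, was at 34.0, 29.2 and 26.6 after MCLI alone and 8.18, 13.8 and 11.5 after SALI, a log2 difference of -1.37 with a standard error of 0.18 (limma, adjusted p = 0.000561). Igf1, its hormonal target, was at 19.3, 13.4 and 10.3 after MCLI alone and 1.38, 5.93 and 3.68 after SALI, and Igfals, which keeps IGF1 in plasma, at 27.7, 18.1 and 14.7 after MCLI alone and 1.34, 3.62 and 1.70 after SALI. They fell by 1.81 and 2.74 on the log2 scale (adjusted p = 0.00472 and 0.000177 in limma). Cux2, a female-biased liver factor, fell by 1.52, and Egfr rose by 0.71. Igfbp1 was at 194, 179 and 207 after MCLI alone and 804, 298 and 288 after SALI and its call was lost under some scalings and without single samples (adjusted p 0.0894 without C 8w sample 1, 0.0993 without C 8w sample 2 and 0.069 without C 8w sample 3). The list had 3 higher members without C 8w sample 1 or 2 and under median-ratio scaling.

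The p53 and cell cycle genes whose proteins the study stained or blotted were measured next. Cdkn1a, which encodes p21, was at 39.5, 46.0 and 67.0 after MCLI alone and 109, 93.99 and 86.1 after SALI, a log2 difference of 0.94 with a standard error of 0.19 (limma, adjusted p = 0.00477), with 8.49% of its windows shared. Trp53 was at 15.7, 16.4 and 17.8 after MCLI alone and 22.1, 21.5 and 20.2 after SALI (3.95% shared). Its log2 difference of 0.34 (adjusted p = 0.0185 in limma) lost its call under scaling, and the adjusted p was 0.0757 without C 8w sample 1 and 0.062 without C 8w sample 2. Cdkn2a, which encodes p16, was under the floor, at 0.0352, 0.135 and 0.0717 after MCLI alone and 0, 0.196 and 0 after SALI. Rb1 was at 2.92, 3.17 and 2.84 after MCLI alone and 3.64, 4.58 and 3.65 after SALI (11.96% shared, log2 difference 0.31), a call likewise lost under scaling and, at adjusted p 0.109 without C 8w sample 1, 0.0644 without C 8w sample 2, 0.116 without C 8w sample 3 and 0.0881 without C 8w + A 4w sample 2, without single samples. Cdk4 and Cdk6 rose by 0.49 and 0.55 (17.0% and 3.32% shared), and Cdk2 was not called, at 2.64, 2.86 and 2.25 after MCLI alone and 2.72, 1.92 and 1.75 after SALI (adjusted p 0.0385 without C 8w + A 4w sample 1).

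Of 28 p53 target genes 13 were higher and 4 lower, with a median of 0.42 (0.27 under quantile normalization), and 11 of the 13 held under the 4 scalings. Pmaip1, the BH3 protein Noxa, was at 0.308, 0.414 and 0.420 after MCLI alone and 3.42, 2.14 and 2.45 after SALI, a log2 difference of 1.40 with a standard error of 0.13. Trp53inp1, which supports p53, was at 62.6, 69.6 and 86.2 after MCLI alone and 176, 110.0 and 116 after SALI and rose by 0.85, and Btg2, an antiproliferative factor, by 0.81. Bbc3, the BH3 protein Puma, went the other way, at 6.74, 8.75 and 11.6 after MCLI alone and 5.001, 2.90 and 2.82 after SALI, a log2 difference of -1.13 with a standard error of 0.22 (limma, adjusted p = 0.00376). Fas, a death receptor, fell by 0.57 (adjusted p 0.0578 without C 8w sample 3 and 0.0571 without C 8w + A 4w sample 3). Bax was not called (8.51% shared, adjusted p = 0.22 in limma, 0.0417 without C 8w + A 4w sample 1). Without C 8w + A 4w sample 3 the list had 2 lower members.

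Of 13 inhibitors of the cell cycle tested, 5 were higher and 4 lower, with 3 higher without C 8w sample 1 or 2 and under median-ratio scaling and quantile normalization. Cdkn2b, which encodes p15, was at 2.62, 2.51 and 5.07 after MCLI alone and 10.8, 14.95 and 12.3 after SALI, a log2 difference of 1.67 with a standard error of 0.22 (limma, adjusted p = 0.000519). Gadd45a was at 3.65, 5.10 and 3.62 after MCLI alone and 42.4, 9.86 and 15.4 after SALI (15.6% shared) and rose by 1.96. Gadd45b fell by 0.59 and Cdkn1c, p57, by 0.62 (24.9% shared).

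Of 12 G1 cyclins, kinases and factors, 6 were higher and 1 lower, with a median of 0.52, and the lower one passed the floor only through the C 8w samples. Of 6 unshared members 4 were higher and none lower, with a median of 0.82. The number higher was 6 whichever sample was left out, but the number lower was 0 without C 8w sample 1 or 2 or C 8w + A 4w sample 3 and 2 without C 8w + A 4w sample 2 or under median-ratio scaling. Myc was at 7.35, 8.47 and 8.54 after MCLI alone and 20.4, 14.5 and 13.4 after SALI. Its log2 difference was 0.89 with a standard error of 0.16 (limma, adjusted p = 0.00222). Ccne1, cyclin E1, was at 1.04, 0.826 and 0.934 after MCLI alone and 3.32, 2.48 and 2.32 after SALI. Its log2 difference was 0.93 with a standard error of 0.12, and it passed the floor only through the C 8w + A 4w samples. Cdc25a, a phosphatase that releases cyclin-dependent kinases, and E2f3 rose by 1.05 and 0.75. Of 18 DNA replication genes 4 were higher and 4 lower. Pcna was at 3.88, 5.14 and 3.98 after MCLI alone and 20.5, 25.6 and 22.99 after SALI but 19.1% of its windows are shared, and the 2 unshared members called, Mcm5 and Mcm10, fell by 0.49 and 0.40 (adjusted p of Mcm5 0.079 without C 8w sample 1, 0.111 without C 8w sample 2, 0.0566 without C 8w sample 3, 0.0795 without C 8w + A 4w sample 1 and 0.102 without C 8w + A 4w sample 3, and of Mcm10 0.0613 without C 8w sample 1 and 0.0509 without C 8w + A 4w sample 3). The list had between 1 and 4 lower members when single samples were left out. Of 34 mitosis genes 30 were under the floor, among them Mki67, at 0.169, 0.372 and 0.208 after MCLI alone and 0.0957, 0.393 and 0.0936 after SALI. Hmmr, a spindle protein and hyaluronan receptor, was at 0.156, 0.479 and 0.370 after MCLI alone and 1.51, 5.68 and 4.07 after SALI. It was the one member called, and it passed the floor only through the C 8w + A 4w samples.

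In the Bcl2 family 11 of 16 genes were higher and 3 lower. The rises included 2 genes that passed the floor only through the C 8w + A 4w samples, and 8 of the 11 held under the 4 scalings. One fall, that of Bik, passed only through the C 8w samples. Bcl2l11, the BH3 protein Bim, was at 3.22, 3.66 and 2.74 after MCLI alone and 9.44, 10.5 and 9.93 after SALI, a log2 difference of 1.39 with a standard error of 0.11 (limma, adjusted p = 3.45e-05), and Bok rose by 0.53. Bik, another BH3 protein, was at 1.97, 2.70 and 1.75 after MCLI alone and 0.618, 0.359 and 0.352 after SALI and fell by 1.12. Bcl2l1, which encodes the survival protein Bcl-xL, had a log2 difference of 0.46 that was not called under every scaling (adjusted p 0.0688 without C 8w sample 1 and 0.0592 without C 8w sample 2). Without C 8w sample 1 the list had 7 higher members.

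Secreted factors of senescent cells were measured because the study looked for senescence. Of 46 on the list 23 were under the floor. Of the 23 tested 8 were higher (34.8% against 32.9% of all genes) and 3 lower, with a median of 0.31, against 0.127 over all genes. The median was 0.20 without C 8w + A 4w sample 2 and under median-ratio scaling, and 0.15 under quantile normalization. Igfbp6 and Plaur, given above, were among the rises, and Igfbp5 was at 0.597, 0.275 and 0.417 after MCLI alone and 1.29, 3.68 and 2.74 after SALI and rose by 1.26. Of the 8 rises, Plaur, Igfbp5 and Igfbp6 passed the floor only through the C 8w + A 4w samples, Igfbp6 with 1 C 8w sample at 1 FPKM or more. Igfbp4 was at 285, 245 and 264 after MCLI alone and 115, 177 and 137 after SALI and fell by 0.90. Ccl5, a T cell chemokine, fell by 0.86, and Tnfrsf1b, a TNF receptor, by 0.84. Ccl2, the monocyte chemokine, was under the floor, at 0.254, 0.494 and 0.527 after MCLI alone and 0.320, 0.661 and 0 after SALI. Without C 8w + A 4w sample 1 the list had 13 higher members.

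Of 33 genes of the integrated stress and unfolded protein responses tested, 18 were higher and 1 lower, with a median of 0.72 (0.44 without C 8w + A 4w sample 1), and 11 of the 18 held under the 4 scalings. These responses slow protein synthesis and, through ATF4, switch on genes of amino acid supply. Asns, asparagine synthetase, was at 14.4, 12.5 and 28.0 after MCLI alone and 80.9, 82.2 and 80.4 after SALI, a log2 difference of 2.17 with a standard error of 0.25 (limma, adjusted p = 0.0003). Slc7a11, the cystine carrier, was at 45.8, 74.6 and 72.5 after MCLI alone and 108.2, 179 and 172 after SALI and rose by 1.24. Atf3, a stress-induced factor, was at 2.20, 2.47 and 2.54 after MCLI alone and 35.7, 11.2 and 8.52 after SALI, a log2 difference of 2.25 with a standard error of 0.43 (limma, adjusted p = 0.00337). Shmt2, of mitochondrial serine use, was at 103, 99.9 and 105 after MCLI alone and 45.5, 50.7 and 41.5 after SALI and fell by 1.14, in contrast to Psat1.

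The rise differed between samples. Ddit3, Trib3 and Hspa5, named after their values were seen, show it. Ddit3, the factor CHOP, was at 11.4, 10.5 and 9.19 after MCLI alone and 102, 13.8 and 16.5 after SALI (4.38% shared), and Trib3 at 13.97, 13.9 and 15.4 after MCLI alone and 71.5, 12.4 and 19.7 after SALI. Neither was called (adjusted p = 0.0999 and 0.218 in limma), but Ddit3 was at 0.0135 without C 8w + A 4w sample 1 and 0.0265 without C 8w + A 4w sample 2 and Trib3 at 0.0293 without C 8w + A 4w sample 2. Hspa5, the chaperone BiP, was at 136, 150.2 and 149.6 after MCLI alone and 585, 208 and 262 after SALI, a log2 difference of 1.12 with a standard error of 0.33 (limma, adjusted p = 0.0232). Sample 1 was far above the other 2 for all 3 genes and for Atf3. The median over the list, relative to C 8w, was 1.12 in sample 1, 0.356 in sample 2 and 0.552 in sample 3. Without sample 1 the list had 3 lower members, without sample 2 it had 24 higher members, without C 8w sample 1 it had 10, and without C 8w sample 2 or 3, or under median-ratio scaling, it had 11. The adjusted p of Hspa5, whose call was also lost under some scalings, was 0.0755 without C 8w sample 1, 0.0623 without C 8w sample 2 and 0.0555 without C 8w sample 3.

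The windows of Asns, Atf3 and Slc7a11 are shown because they hold TGATGNAA, the composite element bound by C/EBP and ATF proteins such as ATF4. On either strand it was found for 5 of 16 called higher stress genes with a window (31.2%). It was found for 12 of 232 unshared genes that rose by at least 1 (5.17%) and for 2.62% of the 8106 genes. The stress list holds genes of a response that acts through ATF4, so a higher share can follow from the list's definition alone. The windows, in the direction of the gene with matches in capitals, are Asns (chr6:7693160-7693459, minus strand), Atf3 (chr1:191183284-191183583, minus strand) and Slc7a11 (chr3:50443564-50443863, minus strand), all in GRCm38.p6 from RefSeq.
Asns: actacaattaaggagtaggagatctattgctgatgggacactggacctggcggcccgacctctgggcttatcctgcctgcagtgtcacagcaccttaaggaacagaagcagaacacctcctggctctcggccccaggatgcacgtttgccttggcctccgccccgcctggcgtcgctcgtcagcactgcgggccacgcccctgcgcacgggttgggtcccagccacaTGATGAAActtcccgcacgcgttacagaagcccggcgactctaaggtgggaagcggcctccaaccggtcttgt
Atf3: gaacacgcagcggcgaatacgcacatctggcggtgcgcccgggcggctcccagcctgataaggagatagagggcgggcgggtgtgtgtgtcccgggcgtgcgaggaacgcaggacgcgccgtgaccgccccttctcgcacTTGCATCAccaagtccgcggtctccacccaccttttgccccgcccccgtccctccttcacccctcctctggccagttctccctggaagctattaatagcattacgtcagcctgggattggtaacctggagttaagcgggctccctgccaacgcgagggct
Slc7a11: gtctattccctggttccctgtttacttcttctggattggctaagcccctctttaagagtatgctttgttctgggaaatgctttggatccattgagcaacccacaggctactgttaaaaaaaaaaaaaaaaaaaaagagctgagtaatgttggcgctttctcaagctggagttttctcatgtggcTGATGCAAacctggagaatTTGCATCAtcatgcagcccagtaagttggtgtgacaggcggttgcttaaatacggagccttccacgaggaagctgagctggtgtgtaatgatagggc
The match lies 23 bases before the start of Asns, 110 before that of Atf3, and 66 and 47 before that of Slc7a11. All 3 genes rose, but a match is a description of letters and not of binding.

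Immediate early genes, which answer growth and stress signals within minutes, were higher in 18 of 23 members and lower in none, with a median of 0.89 (1 lower without C 8w + A 4w sample 3). Klf4 was at 0.597, 0.602 and 0.984 after MCLI alone and 8.08, 4.64 and 6.61 after SALI, a log2 difference of 2.09 with a standard error of 0.18, and Klf6 at 4.74, 4.70 and 6.01 after MCLI alone and 27.5, 18.5 and 17.7 after SALI, a log2 difference of 1.83 with a standard error of 0.17 (limma, adjusted p = 9.58e-05). Ier3, an early response gene of survival, rose by 1.36. Dusp6, a phosphatase of ERK, was the most abundant member not called (adjusted p = 0.0706 in limma). Of the 18 rises 15 held under the 4 scalings, and 2 of the 18 passed the floor only through the C 8w + A 4w samples.

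The study looked at genes of the Hippo pathway, and the list counted here also holds targets of the pathway's effector YAP. It was put together for this comparison. Of 30 genes tested 15 were higher and 2 lower, with a median of 0.26 against 0.127 over all genes, and of 24 unshared genes 10 were higher (29.9% of all unshared genes were). The median was 0.15 under median-ratio scaling and 0.13 under quantile normalization. Ptpn14, a phosphatase that holds YAP back, was at 0.144, 0.217 and 0.259 after MCLI alone and 6.16, 13.4 and 9.50 after SALI, a log2 difference of 3.09 with a standard error of 0.22. Ajuba, a LIM protein that restrains the pathway's kinases, was at 3.62, 5.08 and 5.33 after MCLI alone and 19.6, 17.1 and 13.7 after SALI and rose by 1.65. Wwtr1, the YAP relative TAZ, was at 3.11, 3.64 and 4.23 after MCLI alone and 11.3, 8.15 and 7.99 after SALI and rose by 1.11, and Crim1, a YAP target, by 1.32. Ccn1 and Ccn2, targets of YAP, were at 7.13, 7.69 and 10.97 after MCLI alone and 17.7, 18.6 and 11.1 after SALI and at 4.02, 2.45 and 5.11 after MCLI alone and 7.34, 9.55 and 6.21 after SALI, and rose by 0.80 and 0.86 (17.2% of Ccn2 shared). The adjusted p of Ccn1 was 0.0638 without C 8w sample 1 and 0.0585 without C 8w sample 2. Vgll4, which competes with YAP, fell by 0.94.

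Markers of bile duct and progenitor cells were higher in 9 of 15 members tested and lower in none, with a median of 0.70 (6 of 10 unshared). Of the 9, Cldn4, Epcam and Sox9, all unshared, passed the floor only through the C 8w + A 4w samples, with no C 8w sample at 1 FPKM. Under median-ratio scaling 7 were higher and 2 lower, under quantile normalization 7 and 1, and without any one of the C 8w + A 4w samples 1 was lower. Tnfrsf12a, the TWEAK receptor of progenitor expansion, was at 8.25, 11.5 and 11.3 after MCLI alone and 117, 91.8 and 90.1 after SALI, a log2 difference of 3.15 with a standard error of 0.16 (limma, adjusted p = 2.51e-06). Epcam was at 0.244, 0.454 and 0.888 after MCLI alone and 5.99, 3.07 and 4.45 after SALI and Sox9 at 0.540, 0.959 and 0.947 after MCLI alone and 1.81, 3.38 and 2.17 after SALI. Their log2 differences were 1.83 and 0.91. Ggt1 was not called, at 51.2, 65.5 and 70.1 after MCLI alone and 83.0, 71.2 and 91.1 after SALI (adjusted p 0.049 without C 8w sample 3 and 0.0275 without C 8w + A 4w sample 2). The summed FPKM of the 24 genes on the list was from 151 to 193 after MCLI alone and from 289 to 357 after SALI.

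Keratins and tubulins were higher in 15 of 19 members and lower in none (1 lower without C 8w + A 4w sample 1 or 2). Under the 4 scalings 13 of the 15 held, and 2 of the 15 passed the floor only through the C 8w + A 4w samples. Krt18, the main hepatocyte keratin with Krt8, was at 171, 169 and 192 after MCLI alone and 359, 322 and 335 after SALI, a log2 difference of 0.93 with a standard error of 0.11 (limma, adjusted p = 0.0003). Krt20 was at 0.138, 0.1202 and 0.278 after MCLI alone and 4.57, 1.61 and 3.33 after SALI and rose by 1.76, and Tubb6 rose by 1.07. Krt19, the duct keratin, was at 0.408, 0.354 and 1.43 after MCLI alone and 1.48, 1.25 and 2.22 after SALI, a call that was lost under some scalings and without single samples (adjusted p 0.155 without C 8w sample 1, 0.153 without C 8w sample 2, 0.0619 without C 8w + A 4w sample 1 and 0.136 without C 8w + A 4w sample 3).

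Of 9 oncofetal genes tested 7 were higher and 1 lower, with a median of 1.31, and 9 others were under the floor. Igdcc4, one of the 7, passed the floor only through the C 8w + A 4w samples, and its value is the median. Ly6d was at 18.1, 24.3 and 36.5 after MCLI alone and 128, 225 and 138 after SALI, a log2 difference of 2.60 with a standard error of 0.28 (limma, adjusted p = 0.000203). Igdcc4, a stem cell surface protein of fetal liver, was at 0.112, 0.0850 and 0.439 after MCLI alone and 2.97, 1.505 and 1.65 after SALI and rose by 1.31, and Peg3, an imprinted gene, by 0.76. Gpc3, a marker of liver tumors, was not called, at 91.2, 80.2 and 92.3 after MCLI alone and 83.2, 99.8 and 83.9 after SALI. Scd2, with 3.97% shared, was the lower one, at 70.0, 64.1 and 63.5 after MCLI alone and 9.15, 59.0 and 14.4 after SALI, with sample 2 only slightly under the C 8w samples (adjusted p 0.0983 without C 8w sample 1, 0.0875 without C 8w sample 2, 0.0788 without C 8w sample 3, 0.0787 without C 8w + A 4w sample 1 and 0.101 without C 8w + A 4w sample 3).

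Targets of Nrf2, the factor that answers electrophiles, were higher in 19 and lower in 6 of 36 members, with a median of 0.45. Of 22 unshared members 9 were higher and 6 lower, with a median of 0.21. The list had 2 lower members under quantile normalization and without C 8w sample 2 or 3, and 3 without C 8w + A 4w sample 1. Srxn1, sulfiredoxin, was at 132, 158 and 213 after MCLI alone and 782, 709 and 693 after SALI, a log2 difference of 2.14 with a standard error of 0.18 (limma, adjusted p = 4.62e-05). Hmox1, heme oxygenase 1, was at 51.8, 60.7 and 47.3 after MCLI alone and 167, 234 and 245 after SALI, a log2 difference of 1.98 with a standard error of 0.17 (limma, adjusted p = 5.50e-05). Tkt, a transketolase of NADPH supply, rose by 0.77 on the log2 scale. All C 8w samples of these genes were above 40. Of the 19 rises 18 held under the 4 scalings, but of the 6 falls that of Osgin1 did, which fell by 0.57 (adjusted p 0.0898 without C 8w sample 2, 0.0854 without C 8w sample 3, 0.0665 without C 8w + A 4w sample 1 and 0.0848 without C 8w + A 4w sample 3).

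Scavengers, metallothioneins and iron genes were mixed, with 10 of 25 higher and 6 lower and a median of 0.22, which was 0.097 without C 8w + A 4w sample 1, 0.081 under median-ratio scaling and quantile normalization and 0.12 with median-ratio scaling on unshared genes. Of 13 unshared members 3 were higher and 4 lower, with a median of -0.28. Gpx3, the plasma glutathione peroxidase, was at 7.66, 7.97 and 10.4 after MCLI alone and 66.9, 44.4 and 37.5 after SALI, a log2 difference of 2.35 with a standard error of 0.21 (limma, adjusted p = 7.23e-05), and Gpx1, its intracellular relative, at 3336, 3161 and 4021 after MCLI alone and 1876, 1923 and 1827 after SALI, a log2 difference of -0.89 with a standard error of 0.13 (limma, adjusted p = 0.00107). Prdx3, the mitochondrial peroxiredoxin, rose by 0.50, and Prdx4, that of the endoplasmic reticulum, fell by 0.82. Tfr2, the iron sensor of hepatocytes, was at 42.7, 33.6 and 29.7 after MCLI alone and 6.04, 7.70 and 8.26 after SALI and fell by 2.12. Mt1 was at 311, 242 and 344 after MCLI alone and 688, 347 and 606 after SALI, a rise that was lost under some scalings (adjusted p 0.0687 without C 8w sample 1, 0.103 without C 8w sample 2, 0.0691 without C 8w + A 4w sample 1 and 0.0844 without C 8w + A 4w sample 3). Fth1, the ferritin heavy chain, was the most abundant member not called, at 9311, 9311 and 10210.0 after MCLI alone and 12620.0, 9760.3 and 11464 after SALI.

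Genes of protein breakdown and folding were called in both directions. Of 36 proteasome subunits 20 were higher and 3 lower, with a median of 0.32 (0.18 under median-ratio scaling), and 14 of the 20 held under the 4 scalings. Psmb4 was at 146, 143 and 168 after MCLI alone and 267, 212 and 235 after SALI, a log2 difference of 0.64 with a standard error of 0.13 (limma, adjusted p = 0.00412), and Psmd12 rose by 0.50. The 3 that fell are the catalytic subunits of the immunoproteasome, and 5 were lower under median-ratio scaling. Psmb10 was at 25.6, 28.6 and 29.6 after MCLI alone and 8.13, 16.9 and 10.4 after SALI, a log2 difference of -1.23 with a standard error of 0.22 (limma, adjusted p = 0.00256), and Psmb8 and Psmb9 fell by 0.78 and 1.00 (11.9% and 4.19% shared, adjusted p of Psmb8 0.0515 without C 8w sample 2 and 0.0583 without C 8w sample 3). Of 17 heat shock genes 7 were higher and 3 lower, and the unshared rise was that of Bag3, a co-chaperone, at 24.4, 26.2 and 29.3 after MCLI alone and 64.2, 65.4 and 64.7 after SALI. Dnajb1 fell by 0.60. Of 32 lysosomal genes 8 were higher (25%) and 6 lower (18.8%), both near the shares over all genes or under them, with a median near 0 that changed sign with scaling and with the sample left out, and Ctsh, a cathepsin, fell by 0.45. The lysosomal list had between 3 and 7 higher members when single samples were left out and 3 under median-ratio scaling.

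Macrophage markers had no common direction among the C 8w + A 4w samples. Of 19 tested 1 was called, Cd14, the endotoxin co-receptor, which is also made by injured hepatocytes. It was at 9.30, 10.3 and 11.2 after MCLI alone and 45.9, 26.3 and 31.7 after SALI, a log2 difference of 1.63 with a standard error of 0.19 (limma, adjusted p = 0.000289). Cd68 was at 6.41, 7.02 and 7.36 after MCLI alone and 9.56, 11.6 and 5.79 after SALI, a log2 difference of 0.29 with a standard error of 0.21 (limma, adjusted p = 0.274), and was not called, with an adjusted p of 0.0125 without C 8w + A 4w sample 3. Adgre1 and Marco, named after their values were seen, encode F4/80 and a scavenger receptor. They were at 4.84, 8.12 and 5.16 after MCLI alone and 1.87, 8.16 and 1.97 after SALI and at 0.986, 4.33 and 1.06 after MCLI alone and 16.5, 48.8 and 1.44 after SALI, and neither was called (adjusted p = 0.201 and 0.0872 in limma). The adjusted p of Adgre1 was 0.000956 without C 8w + A 4w sample 2, and that of Marco 0.0028 without C 8w + A 4w sample 3. C 8w + A 4w sample 2 was the highest of its group for Cd68, Adgre1, Marco, C1qa and Lyz2, the last at 37.2, 40.4 and 50.5 after MCLI alone and 31.6, 142 and 44.6 after SALI (15.4% shared).

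The median over the macrophage list, relative to C 8w, was 0.936 in sample 2 and -0.413 and -0.307 in samples 1 and 3. Summed FPKM of its 20 genes was from 321 to 384 after MCLI alone and from 288 to 790 after SALI. Without sample 2, 8 of the 19 members were lower and 1 higher, and without sample 3, 4 were higher and none lower. The median log2 difference of the list was 0.13, close to that of all genes, and -0.01 under median-ratio scaling, where 1 member was higher and 1 lower. Its direction thus differed between samples and between scalings.

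Markers of recruited monocytes and scar macrophages were higher in 7 of 11 members and lower in 1, with a median of 1.05, and 7 or 8 were higher whichever sample was left out. Without C 8w + A 4w sample 2, 3 were lower. Of the 6 unshared members 3 were higher and 1 lower, with a median of 0.28. Lgals3, galectin 3, was at 1.53, 2.83 and 3.49 after MCLI alone and 27.5, 22.1 and 25.1 after SALI, a log2 difference of 2.88 with a standard error of 0.20 (limma, adjusted p = 1.96e-05). Cd63, a tetraspanin of many cell types, was at 2.82, 2.34 and 3.28 after MCLI alone and 132, 93.6 and 104 after SALI with 11.1% shared, and Ccl6, a chemokine, at 6.13, 7.53 and 7.62 after MCLI alone and 17.2, 33.7 and 16.6 after SALI. Gpnmb, a glycoprotein of macrophages and other cells, rose by 0.72, and Ccl9 fell by 0.73. Itgam, which encodes CD11b and is a defining marker, was under the floor at 0.137, 0.154 and 0.216 after MCLI alone and 0.149, 0.276 and 0.159 after SALI (66.3% shared), as were 8 others.

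Lymphocyte and neutrophil markers were mostly under the floor. An exact 0 among them, as for B3gat1, can be a failed estimate and does not show absence. Of 26 T, NK and B cell markers 25 were under the floor, including Tbx21, at 0.0855, 0.0701 and 0.0484 after MCLI alone and 0.132, 0.0609 and 0.0244 after SALI, and B3gat1, which encodes CD57 and was listed at 0, 0 and 0 after MCLI alone and 0.00614, 0 and 0 after SALI. The exception was Eomes, at 0.0343, 0.0871 and 0.227 after MCLI alone and 9.27, 3.46 and 4.21 after SALI (2.10% shared). It passed the floor only through the C 8w + A 4w samples. Of 14 neutrophil markers 2 were tested and none was called in limma with all 6 samples, but S100a9, a calprotectin subunit at 1.61, 0.870 and 9.15 after MCLI alone and 2.65, 3.85 and 3.65 after SALI, had an adjusted p of 0.0069 without C 8w sample 3. The summed FPKM of the list was from 4.30 to 17.8 after MCLI alone and from 9.94 to 12.6 after SALI.

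Interferon-stimulated genes were lower in 6 and higher in 3 of 28 members, with a median of -0.37. The median was -0.20 without C 8w + A 4w sample 1, -0.21 without C 8w sample 2 and -0.63 without C 8w + A 4w sample 2. The number lower was 12 under median-ratio scaling, 11 with that scaling on unshared genes and 14 under quantile normalization. Cxcl9, a T cell chemokine induced by interferon gamma, was at 1.99, 2.83 and 1.85 after MCLI alone and 0.109, 0.347 and 0.0927 after SALI, a log2 difference of -1.44 with a standard error of 0.14. Bst2, tetherin, fell by 0.87 and Irf9 by 0.89. Oasl1 rose by 0.50. Iigp1, an interferon-induced GTPase, was not called, at 83.2, 91.0 and 90.7 after MCLI alone and 39.8, 144 and 122 after SALI (adjusted p 0.00591 without C 8w + A 4w sample 1). Without C 8w + A 4w sample 2, the highest for Iigp1, 18 members were lower, and without sample 1, 5 were higher.

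Of 16 genes of MHC presentation 2 were lower and 1 higher, and 4 were lower under median-ratio scaling and quantile normalization. The rise was not called under every scaling, and none was higher without C 8w sample 1 or 2 or C 8w + A 4w sample 1 or 2. Under total scaling and without C 8w + A 4w sample 3, 2 were higher. B2m, the light chain of class I, was at 1247, 1206 and 1040.5 after MCLI alone and 543, 826 and 726 after SALI, a log2 difference of -0.75 with a standard error of 0.17 (limma, adjusted p = 0.00774). The class II genes Cd74 and H2-Aa, of which H2-Aa was named after its values were seen, were at 72.0, 126 and 107 after MCLI alone and 28.6, 123 and 33.4 after SALI and at 46.6, 88.5 and 66.9 after MCLI alone and 16.4, 88.9 and 21.2 after SALI, with sample 2 near the highest C 8w sample and the other 2 below the C 8w range. They were not called (adjusted p = 0.128 and 0.16 in limma). Adjusted p was 0.000518 without C 8w + A 4w sample 2 for Cd74 and 0.000676 without C 8w + A 4w sample 2 for H2-Aa. Without sample 2, 10 of the 16 genes were lower.

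**Figure D5:**
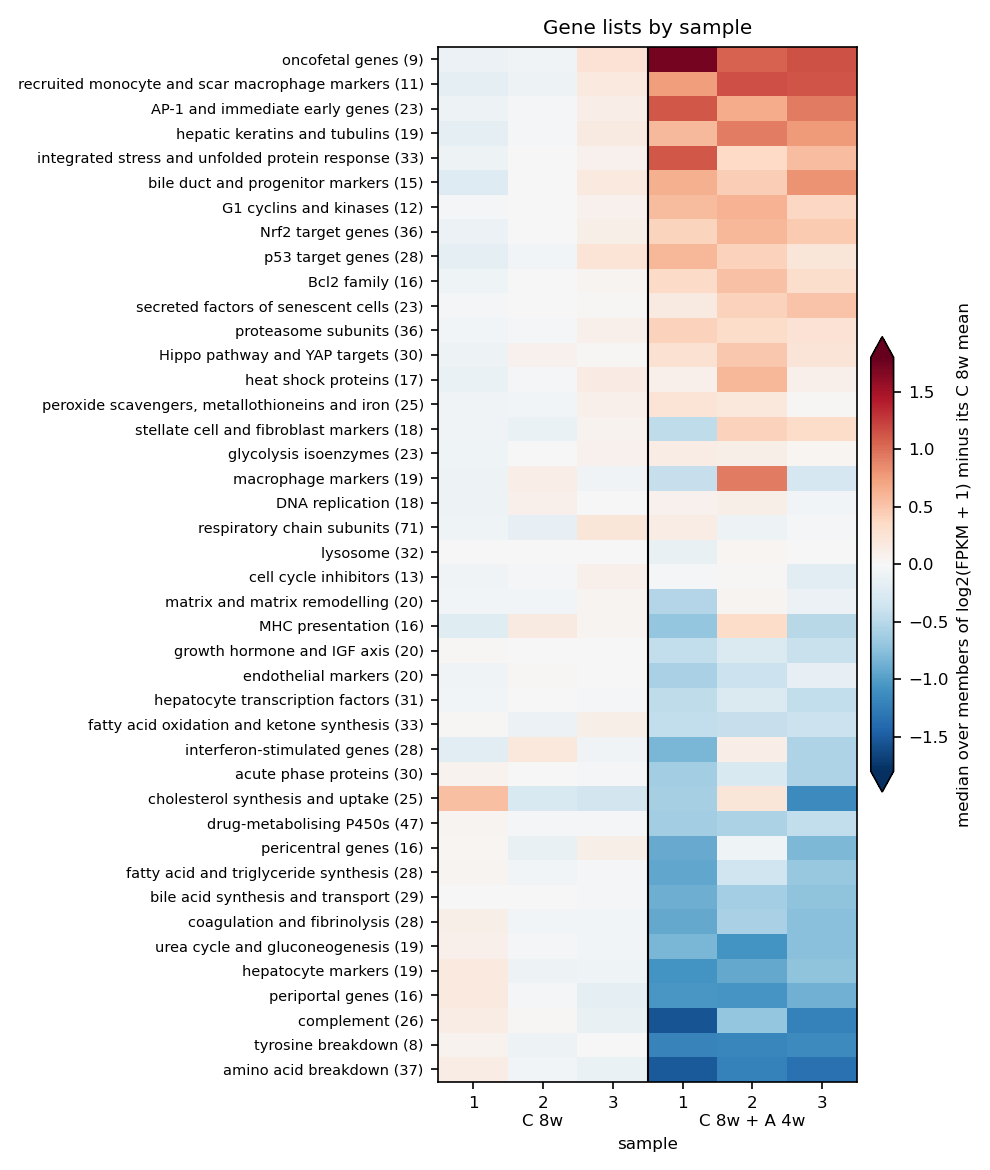
Median over the tested members of each list of log2(FPKM + 1) minus the gene's C 8w mean, by sample, from blue (lower) to red (higher), with the number of members in parentheses. Rows are lists and columns the 6 samples; macrophage markers stand at 0.936 in C 8w + A 4w sample 2 and at -0.413 and -0.307 in the other 2, while amino acid breakdown is lower in all 3, and lists with fewer than 5 members and the ribosomal list are left out.

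Stellate cell and fibroblast markers were called in 4 of 18 members, 3 higher and 1 lower (5 higher under total scaling, 2 under the other scalings). Dcn, decorin, was the most abundant one not called, at 75.1, 68.3 and 75.9 after MCLI alone and 77.2, 116 and 104 after SALI (adjusted p 0.00477 without C 8w + A 4w sample 1). Pdgfra (4.93% shared) and Cygb (6.79% shared) rose by 0.76 and 1.00. Col1a1, named after its values were seen, was under the floor, at 0.749, 0.849 and 1.46 after MCLI alone and 0.0618, 0.337 and 0.528 after SALI. Without C 8w + A 4w sample 1, the lowest of its group on this list, 6 members were higher, and without sample 2 or 3, 2 were lower.

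Matrix genes were lower in 7 and higher in 4 of 20 members. Col3a1, a fibrillar collagen, was at 2.67, 2.56 and 4.73 after MCLI alone and 0.182, 1.72 and 1.39 after SALI, a log2 difference of -1.09 with a standard error of 0.32 (limma, adjusted p = 0.0207). Its adjusted p was 0.0718 without C 8w sample 3. Col18a1, a basement membrane collagen made by hepatocytes, was at 134, 112 and 112 after MCLI alone and 47.0, 58.1 and 56.9 after SALI and fell by 1.13, and Sparc fell by 0.88. Lamc1, a laminin chain, was at 4.26, 4.83 and 4.14 after MCLI alone and 8.19, 9.97 and 10.1 after SALI and rose by 0.94. Fn1 was not called (2.51% shared, adjusted p = 0.166 in limma).

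Of 20 endothelial markers 9 were lower and 3 higher, with a median of -0.35. Of 15 unshared members 9 were lower and 2 higher, with a median of -0.55. Dnase1l3, a nuclease of sinusoidal endothelium, was at 14.1, 13.9 and 13.1 after MCLI alone and 4.05, 5.47 and 5.39 after SALI, a log2 difference of -1.31 with a standard error of 0.12 (limma, adjusted p = 7.77e-05). Clec4g, a sinusoidal lectin, fell by 1.35, and the scavenger receptors Stab1 and Stab2 by 0.91 and 0.88. Plvap, which forms the diaphragms of capillary openings, was at 32.9, 28.1 and 30.3 after MCLI alone and 48.3, 51.2 and 44.9 after SALI, a log2 difference of 0.64 with a standard error of 0.11 (limma, adjusted p = 0.00159). Lyve1 was at 1.56, 1.97 and 2.08 after MCLI alone and 2.71, 8.61 and 6.64 after SALI and rose by 1.18 (adjusted p 0.054 without C 8w sample 1).

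Glycolysis isoenzymes were called in both directions, 11 higher and 10 lower of 23. The sign of the list's median changed with scaling, from 0.0923 to -0.0504 under median-ratio scaling, and it was between 0.053 and 0.16 when single samples were left out. Of 11 unshared members 8 were lower and 2 higher, with a median of -0.68. Khk, ketohexokinase, was at 87.4, 88.3 and 98.2 after MCLI alone and 26.8, 39.0 and 37.1 after SALI, a log2 difference of -1.40 with a standard error of 0.15 (limma, adjusted p = 0.000191), and Slc2a2, the hepatocyte glucose carrier GLUT2, fell by 1.15. Slc2a1, the carrier GLUT1 of most other cells, was at 8.78, 10.5 and 9.55 after MCLI alone and 25.1, 16.2 and 20.2 after SALI, a log2 difference of 1.004 with a standard error of 0.15 (limma, adjusted p = 0.00121). Pfkfb3, an activator of glycolysis, rose by 0.83. The fetal isoenzyme Pkm was at 4.34, 6.604 and 9.29 after MCLI alone and 81.2, 95.1 and 98.5 after SALI, but 25.8% of its windows are shared.

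Respiratory chain subunits were called no more often than all genes, with 18 of 71 higher (25.4% against 32.9%) and 13 lower (18.3% against 18.5%) and a median near 0 that changed sign with scaling and with the sample left out. Of 35 unshared members 3 were higher and 8 lower. Ndufv2 was at 50.1, 51.9 and 69.3 after MCLI alone and 96.4, 89.8 and 77.0 after SALI and rose by 0.62, and Ndufv1, of the same complex I module, was at 130.3, 127 and 147 after MCLI alone and 90.5, 63.1 and 85.3 after SALI and fell by 0.76. Sdha, of complex II, fell by 0.49. Cox6b1 was the most abundant member not called (adjusted p = 0.0616 in limma, 0.0217 without C 8w sample 3). The list had 7 or 8 lower members without C 8w sample 1 or 3 or C 8w + A 4w sample 3.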

How the data were processed

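RNA sequencing of livers was analysed for 3 C 8w + A 4w samples against 3 C 8w samples, grouped by their treatment labels. The authors deposited 1 table of FPKM values per gene and sample. The submitters' processing notes name Bowtie 0.12.2 and build mm8. The quantifier and annotation are not given in the sources used here, and FPKM keeps no depth.

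Genes passing a floor of 1 FPKM in 3 or more of the 6 samples entered. Those with every sample of 1 group under 1% of the other group's mean were set aside. Values were tested as log2(FPKM + 1), without further scaling, in R 4.3.3 with limma 3.58.1 (lmFit, eBayes with trend, two-sided, Benjamini-Hochberg). Fold changes on this scale understate those of low genes. Shared sequence and motifs were counted in Python 3.11.15. The procedure was also run on simulated data, but the outcome is not given here, so that run is no check of these calls. The deposited FPKM table named genes by Ensembl identifier, and symbols were paired for 22314.

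Named genes were Fah, Afp and genes of proteins the study measured, the 12 largest unshared rises and falls without overlap, up to 4 called members of a list in each direction, the most abundant member not called, and 6 genes set aside. Others are said to be chosen after their values were seen. Members and lists were chosen with earlier results of these data known. Some results for genes that met this rule are not reported here. Alternatives are given in the closing section.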

Additional observations from a re-analysis of the deposited data

How the results depend on the processing

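Of 10312 genes tested, 5302 were called, 3393 higher and 1909 lower. With a floor of 10, 2472 were called (1439 higher, 1033 lower), with unshared genes only 3038 (1863 and 1175), and with a log2 difference of at least 1, 1226 (732 and 494). These settings keep fewer genes by construction. Leaving out 1 sample gave between 3782 and 5367 called, between 2363 and 3241 higher and between 1419 and 2177 lower. Fitting all 8 samples gave 4173. The share of calls that were higher was 64% without scaling, 50.4% with median-ratio scaling, 54.1% with that scaling on unshared genes, 47.7% with quantile normalization and 69.5% with total scaling. No paired analysis was possible because the groups share no replicate numbers in the labels. Other pseudocounts, floors, set-aside rules and limma settings kept each of these counts within 1.5 times. Of the 239 named genes tested, none changed direction under these settings while called, and most calls ended in the fit of all 8 samples (20) and without C 8w sample 1 (17). Unknown depth limits the low genes most.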

Other observations

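Some genes outside the lists, named after their values were seen, also fell. Apoc3, which slows the clearance of triglyceride-rich lipoproteins, was at an FPKM of 1489.8, 1250.3 and 1242 after MCLI alone and 419, 392 and 367 after SALI, a log2 difference of -1.75 with a standard error of 0.13 (limma, adjusted p = 2.13e-05). Pon1, an enzyme of high density lipoprotein, was at 361, 267 and 301 after MCLI alone and 75.5, 82.8 and 66.8 after SALI, with a log2 difference of -2.03 (adjusted p = 1.98e-05 in limma). Uox, the urate oxidase of peroxisomes, was at 242, 212 and 208 after MCLI alone and 34.5, 56.2 and 76.7 after SALI, a log2 difference of -2.03 with a standard error of 0.25 (limma, adjusted p = 0.00042), and Hao1, the glycolate oxidase related to Hao2, at 118, 122 and 98.7 after MCLI alone and 9.62, 26.4 and 21.5 after SALI, a log2 difference of -2.60 with a standard error of 0.31 (limma, adjusted p = 0.000349).

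Among the rises outside the lists, Ptgr1, a reductase of prostaglandins and reactive aldehydes, was at 21.4, 27.8 and 26.6 after MCLI alone and 212, 241 and 217 after SALI, a log2 difference of 3.10 with a standard error of 0.13 (limma, adjusted p = 7.67e-07). Anxa2 and S100a6, calcium-binding proteins of epithelia and mesenchyme, rose by 1.95 and 2.28 on the log2 scale. Mfge8, a bridge for the uptake of dying cells, was at 8.37, 8.77 and 10.5 after MCLI alone and 48.1, 39.0 and 34.8 after SALI, and Rhoc, a GTPase of cell shape, at 7.68, 6.02 and 7.75 after MCLI alone and 37.6, 24.1 and 25.5 after SALI. They rose by 2.02 and 1.86 (adjusted p = 1.90e-05 and 0.0001 in limma), and no C 8w + A 4w sample of these 5 genes overlapped with C 8w.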
